A study of Schizosaccharomyces pombe with 6 samples.

Results

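The enzymes that make arginine, histidine, lysine, the branched-chain amino acids, methionine and tryptophan were followed in fission yeast, Schizosaccharomyces pombe, that carry a mutation in the transcription termination factor Seb1. The genes were chosen by name: 36 symbols were looked up as common or other names in the authors' deposited table, and 35 were found among the 6986 features of the count table. The symbol ilv3 was carried by no row. By branch the genes comprised 7 of arginine, 6 of histidine, 6 of lysine, 5 of the branched chains, 7 of sulfate assimilation and methionine, and 4 of tryptophan.

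Polyadenylated RNA was sequenced from 3 wild-type and 3 mutant libraries of cells in log-phase vegetative growth in YES, a rich yeast extract medium, at 30 °C. Both strains were h+ (the P mating type) and both carried a drug-marked allele of the largest RNA polymerase II subunit labelled rpb1-CTD-WT29, marked by NatMX in the wild type and by KanMX in the mutant. The mutant strain, STF19, additionally carried seb1-G476S, so the marker and the seb1 allele changed together and their effects cannot be told apart. Each group was 1 strain grown as biological replicates according to the series' design text, and the wild-type libraries had been deposited before from the same sequencing run. Total counts were 21013941 to 27910803 per library. The transcript of seb1 stood at 120.1 ± 12.3 CPM in the wild type and at 357 ± 14.1 CPM in the mutant, and that of rpb1 was not called. Neither level checks the point mutation, which counts do not show. Of the h+ markers, map3, map2 and map1 were present, of which map3 was higher, map1 lower and map2 not called, and they summed to 39.1 to 51.8 CPM in the wild type and 68.1 to 80.1 CPM in the mutant. Of 8 listed h- markers 3 were higher, and the list summed to 117 to 129 CPM in the wild type and to 130.1 to 143 CPM in the mutant. Of these, mat1-Mc and mat1-Mi, which define that mating type, had no read in any library. Their h+ counterparts mat1-Pc and mat1-Pi were not found by name. Whether reads of the mating-type genes could be counted was not tested, so the absence of reads does not settle the mating type. Markers of meiosis and sporulation summed to 78.0 to 118 CPM and 74.2 to 85.8 CPM over 6 genes, 2 higher and 2 lower, and those of vegetative growth to 5304 to 5555 CPM and 6949 to 7169 CPM over 4 genes, 2 of them higher. The part of cell type in the results below was not tested.

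Seb1 binds nascent RNA and acts in 3'-end processing and termination by RNA polymerase II. Amino acid synthesis in fungi is made of linear branches that leave central metabolism, and their enzymes are known to be induced together when amino acids run short. In fission yeast this runs through phosphorylation of the translation initiation factor eIF2 alpha by the kinases Gcn2, Hri1 and Hri2 and through the GATA-type transcription factor Fil1. Rich medium of the kind used here supplies amino acids to the cells.

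Levels are given as CPM, read counts scaled to a TMM-adjusted library total of 1000000, in the order of replicates 1, 2 and 3, or as mean ± SD over 3 libraries. Changes are log2 fold changes, mutant over wild type, with a standard error (SE), tested with edgeR's quasi-likelihood test. An adjusted p under 0.05 after Benjamini-Hochberg adjustment over all 6046 features tested is called a change. In such bulk RNA, fewer cells that express a gene and less RNA per cell cannot be told apart.

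Most transcripts for amino acid biosynthesis differed little between the strains. All 35 genes passed the low-count filter, and 10 were higher in the mutant, 2 were lower and 23 were not called. Of all features tested 55.0% were called, 26.7% higher and 28.4% lower, and of protein-coding features 55.8%, 24.2% higher and 31.5% lower. Of the amino acid genes 34.3% were called, 28.6% higher and 5.71% lower. The higher genes were lys3, lys4, lys7 and lys9 of lysine, arg1 and arg11 of arginine, his4, leu3, met6 and trp2, and the lower ones were arg12 and his2. In this fit the share called higher was close to the background. The share called lower was below it, a difference that was not tested. The 3 mutant libraries all lay above the 3 wild-type libraries for 14 of the genes and below them for 3, where 31.3% and 32.6% of all features tested did so.

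The sizes were small as well. The median log2 fold change of the 35 genes was 0.12, against -0.0078 for all features tested, and 26 of the 35 values were above 0. A log2 change of at least 0.5 in either direction was seen in 2 genes, lys7 and his3, of which his3 was not called, where 32.6% of all features tested reached that size. The direction depended on the scaling. With library totals alone the median of all features moved by -0.12 and the median of the 35 genes came to 0.0049. Under that scaling 1148 of all 6046 features tested were called higher and 2287 lower. Of the 35 genes 7 were called higher and 7 lower. The lower ones were then arg12, his2, his7, leu1, leu2, sua1 and met26. The called rises of arg1, arg11, lys3 and lys4 came to 0.13, 0.11, 0.12 and 0.11 under that scaling, and those of leu3 and met6 to 0.23 and 0.22. Relative to the median of all features, 28 of the 35 genes lay above it under either scaling. Without wild-type replicate 1 the number higher was 17, with 2 lower, where 1677 of all 6090 features tested were higher and 1835 lower.

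**Figure D1:**
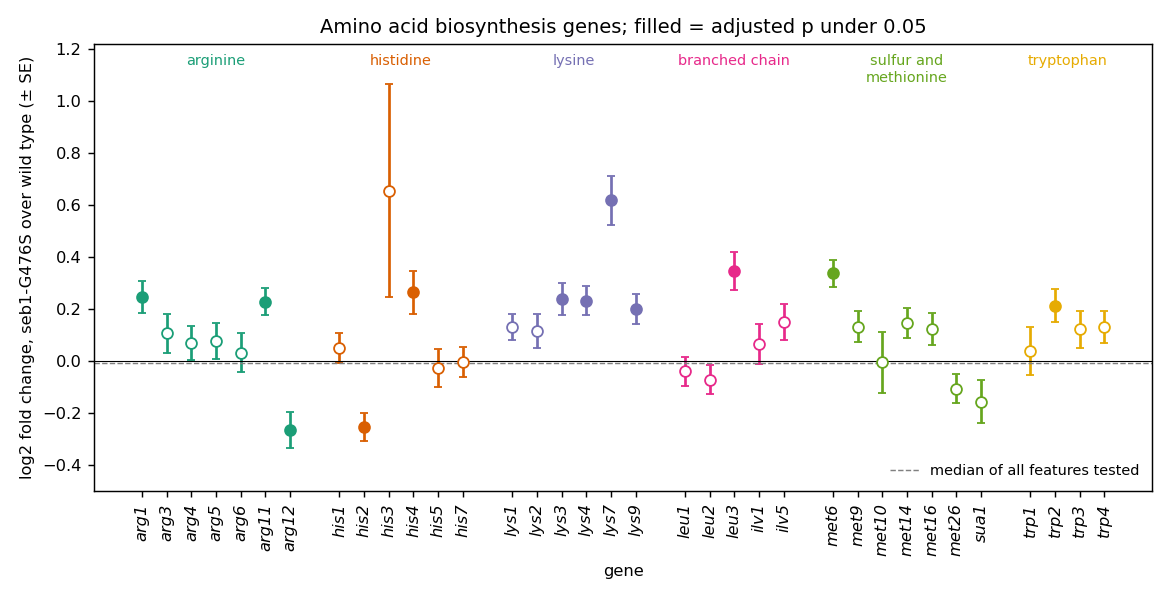
Log2 fold change of the mutant over the wild type (vertical axis, bars are SE) for each of the 35 genes, grouped and coloured by branch, with filled points for an adjusted p under 0.05. The points lie mostly between -0.26 and 0.35, with lys7 at 0.62 and his3, with its wide error, at 0.65.

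Lysine was the branch with the most calls, 4 of 6 genes higher and 0 lower, and its median log2 fold change was 0.22. Its share called, 66.7% and all of it higher, compares with 55.0% called and 26.7% higher over all features tested. The other branches lay below that 55.0%: arginine at 42.9%, histidine at 33.3%, tryptophan at 25%, the branched chains at 20% and sulfur and methionine at 14.3%. These shares rest on 4 to 7 genes each and were not tested. Fungi make lysine by the alpha-aminoadipate route, in which Lys4, homocitrate synthase, takes the first step. The lys4 gene (SPBC1105.02c, chromosome II) stood at 956, 904 and 867 CPM in the wild type and at 1063, 1049.8 and 1087 CPM in the mutant (log2 fold change 0.23, SE 0.0558, adjusted p = 0.00652). Every mutant library lay above every wild-type library. The aminoadipate reductase gene lys1 and the homoaconitase gene lys2 of the middle steps were not called, at log2 fold changes of 0.13 (adjusted p = 0.0511) and 0.12 (adjusted p = 0.155).

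The largest called change among the 35 genes was that of lys7 (SPAC17C9.02c, chromosome I), which encodes the phosphopantetheinyl transferase that activates the aminoadipate reductase Lys1. It gave 24.2, 26.0 and 22.5 CPM in the wild type against 36.4, 36.6 and 38.7 CPM in the mutant, a 1.54-fold rise (log2 fold change 0.62, SE 0.0942, adjusted p = 0.000594). The groups were well apart, although lys7 had a lower level per kilobase of exon than any of the 35 genes other than his3. Whether the changes of lys7 and lys1 differ was not tested.

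The last steps are taken by a pair of saccharopine dehydrogenases. The gene lys9 (SPBC3B8.03) stood at 1598, 1496 and 1428 CPM in the wild type and at 1767, 1723 and 1702 CPM in the mutant (log2 fold change 0.20, SE 0.0592, adjusted p = 0.0171), and lys3 (SPAC227.18) at 976, 907 and 865 CPM and 1120.1, 1079 and 1045 CPM (log2 fold change 0.24, SE 0.0611, adjusted p = 0.00847). In both genes the lowest mutant library was above the highest wild-type library. The call of lys9 was lost with library totals alone (adjusted p = 0.0713) and without wild-type replicate 2 (adjusted p = 0.0663), mutant replicate 1 (adjusted p = 0.0592) or mutant replicate 2 (adjusted p = 0.0669) in edgeR's test, while lys3 was called in all 11 alternatives. Summed over the 6 genes, lysine transcripts were at 4725, 4448 and 4247 CPM in the wild type and at 5244, 5095 and 5059 CPM in the mutant, 14.7% higher in the mean.

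In the arginine branch 2 of 7 genes were higher and 1 was lower. Arginine is built on acetylated glutamate, which Arg6, Arg11 and Arg1 make and convert to acetylornithine. The gene arg11 (SPAC4G9.09c, chromosome I), which encodes both acetylglutamate kinase and the reductase of the next step, gave 660.3, 643 and 627 CPM in the wild type against 764, 760.3 and 737 CPM in the mutant (log2 fold change 0.23, SE 0.0504, adjusted p = 0.00422). The acetylornithine aminotransferase gene arg1 (SPCC777.09c, chromosome III) was at 1078, 1015 and 958 CPM and 1260.0, 1209.7 and 1148 CPM (log2 fold change 0.25, SE 0.0631, adjusted p = 0.00873). Neither gene's groups overlapped, while arg6, acetylglutamate synthase, had a log2 fold change of 0.032 (adjusted p = 0.739).

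Further along, arg12 (SPBC428.05c, chromosome II), the argininosuccinate synthase gene, fell from 702, 639 and 585 CPM in the wild type to 553, 522 and 528 CPM in the mutant (log2 fold change -0.26, SE 0.0696, adjusted p = 0.00975). The wild-type libraries spread widely, but all of them lay above the mutant libraries. Between these steps stand the ornithine carbamoyltransferase gene arg3 and the carbamoyl-phosphate synthase subunit genes arg4 and arg5, and none of these was called, with log2 fold changes of 0.11, 0.069 and 0.075. In the reference annotation arg3 and arg11 are divergent neighbours, so that both are transcribed away from the same stretch of DNA. Of this pair arg11 was called and arg3 was not (adjusted p = 0.25), and the difference between them was not tested.

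Histidine showed 1 gene higher and 1 lower among 6. The pathway runs from His1, ATP phosphoribosyltransferase, through His7, His4, His5 and His3 to His2, histidinol dehydrogenase, which releases histidine. The his2 gene (SPBC1711.13, chromosome II) stood at 575, 549 and 528 CPM in the wild type and at 478, 455 and 452 CPM in the mutant (log2 fold change -0.26, SE 0.0550, adjusted p = 0.00372). All mutant libraries lay below all wild-type libraries. The gene of the entry enzyme, his1, was not called, at 783, 736 and 698 CPM and 768, 762 and 766 CPM (log2 fold change 0.05, adjusted p = 0.472).

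The imidazoleglycerol-phosphate synthase gene his4 (SPBC418.01c) gave 241, 209 and 212 CPM in the wild type against 293, 262 and 241 CPM in the mutant (log2 fold change 0.26, SE 0.0828, adjusted p = 0.0216). It is the 1 called gene whose groups overlapped, wild-type replicate 1 being just above mutant replicate 3. Its call was also lost with library totals alone (adjusted p = 0.0883) and without wild-type replicate 2 (adjusted p = 0.0892), mutant replicate 1 (adjusted p = 0.0897) or mutant replicate 2 (adjusted p = 0.0556) in edgeR's test. Both his5, the dehydratase gene, and his7 were level between the groups within their spread, with log2 fold changes of -0.028 and -0.0036.

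The aminotransferase gene his3 (SPBC11B10.02c), singled out here after its values were seen, stood at 3.95, 11.9 and 3.38 CPM in the wild type and at 7.56, 11.3 and 11.7 CPM in the mutant, the lowest level per kilobase of all 35 genes, and wild-type replicate 2 lay above all mutant libraries. Its log2 fold change was 0.65 with an SE of 0.410 (adjusted p = 0.198), and its wild-type coefficient of variation of 74.5% compares with a median of 6.14% over the 35 genes. Without wild-type replicate 2 the log2 fold change was 1.47 and passed the threshold (adjusted p = 0.00229 in edgeR). In the reference annotation most of his3 lies under the opposite-strand gene alg2, which gave 68.0 ± 1.66 CPM in the wild type against 82.1 ± 2.27 CPM in the mutant. Whether the authors counted by strand is not given in the sources used here, and the part of alg2 reads in the values of his3 was not tested.

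Among the 5 genes of the branched-chain pathway 1 was higher and 0 were lower. Leu3, 2-isopropylmalate synthase, commits carbon to leucine, and its gene (SPBC3E7.16c, chromosome II) stood at 463, 421 and 399 CPM in the wild type and at 587, 539.6 and 504 CPM in the mutant (log2 fold change 0.35, SE 0.0745, adjusted p = 0.00367). This 27.1% rise put every mutant library above the wild type. The genes of the enzymes after it were not called: leu2, the dehydratase gene, was at 1056 ± 43.5 and 1004 ± 35.8 CPM (log2 fold change -0.073, adjusted p = 0.293), and leu1, the dehydrogenase gene, at 680.4 ± 34.9 and 661 ± 18.9 CPM (log2 fold change -0.041, adjusted p = 0.557).

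The steps shared by valine, leucine and isoleucine begin with acetolactate synthase, encoded by ilv1, and the reductoisomerase Ilv5. The ilv1 gene had a log2 fold change of 0.064 (adjusted p = 0.496). The ilv5 gene (SPBC56F2.12) was the most abundant of the 35 per kilobase of exon, at 2814, 2670.4 and 2518 CPM in the wild type and at 3168, 2924 and 2786 CPM in the mutant, with overlapping groups and no call (log2 fold change 0.15, SE 0.0694, adjusted p = 0.0911).

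Sulfate assimilation and methionine synthesis had 1 gene higher of 7 and 0 lower. The gene of homoserine O-acetyltransferase, met6 (SPBC56F2.11, chromosome II), which activates homoserine for the entry of sulfur, gave 315, 305 and 326 CPM in the wild type against 399.5, 403 and 393 CPM in the mutant (log2 fold change 0.34, SE 0.0509, adjusted p = 0.000567). Its 26.3% rise had the smallest adjusted p of the 35 genes, and its groups were far apart for their spread. Unlike most of the 35 genes, met6 was highest in wild-type replicate 3 among the wild-type libraries.

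The genes of the chain that reduces sulfate to sulfide were not called. From the entry on, sua1, sulfate adenylyltransferase, was at a log2 fold change of -0.16, met14, the adenylyl-sulfate kinase gene, at 0.15, met16, which reduces the product of that kinase, at 0.12, and met10, a sulfite reductase subunit gene, at -0.0058, with adjusted p of 0.128, 0.0514, 0.121 and 0.971 in edgeR's test. Of these, sua1 and met10 had overlapping groups. The sua1 gene was called lower without wild-type replicate 3 (log2 fold change -0.25, adjusted p = 0.00294 in edgeR), and also with library totals alone and with replicate number as a block. For met10, wild-type replicate 1, at 486 CPM, stood above replicates 2 and 3, at 369 and 339 CPM. The methionine synthase gene met26 (SPAC9.09) stood at 2805, 2640.1 and 2716 CPM in the wild type and at 2595, 2496 and 2484 CPM in the mutant, below the wild type in all 3 mutant libraries but not called (log2 fold change -0.11, SE 0.0558, adjusted p = 0.126). The methylenetetrahydrofolate reductase gene met9, which supplies its methyl group, was not called either, at 0.13 (adjusted p = 0.0837).

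In the tryptophan branch 1 of 4 genes was higher and 0 were lower. The gene of tryptophan synthase, trp2 (SPAC19A8.15, chromosome I), the last enzyme, gave 716, 656 and 635 CPM in the wild type against 815, 761 and 749 CPM in the mutant (log2 fold change 0.21, SE 0.0630, adjusted p = 0.017). The groups did not overlap, but the gene was no longer called with library totals as the scaling (adjusted p = 0.0688), without wild-type replicate 2 (adjusted p = 0.0696) and without mutant replicate 1 (adjusted p = 0.0684) in edgeR's test. The anthranilate synthase genes trp3 and trp1 and the phosphoribosyltransferase gene trp4 were not called, at log2 fold changes of 0.12, 0.037 and 0.13.

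**Figure D2:**
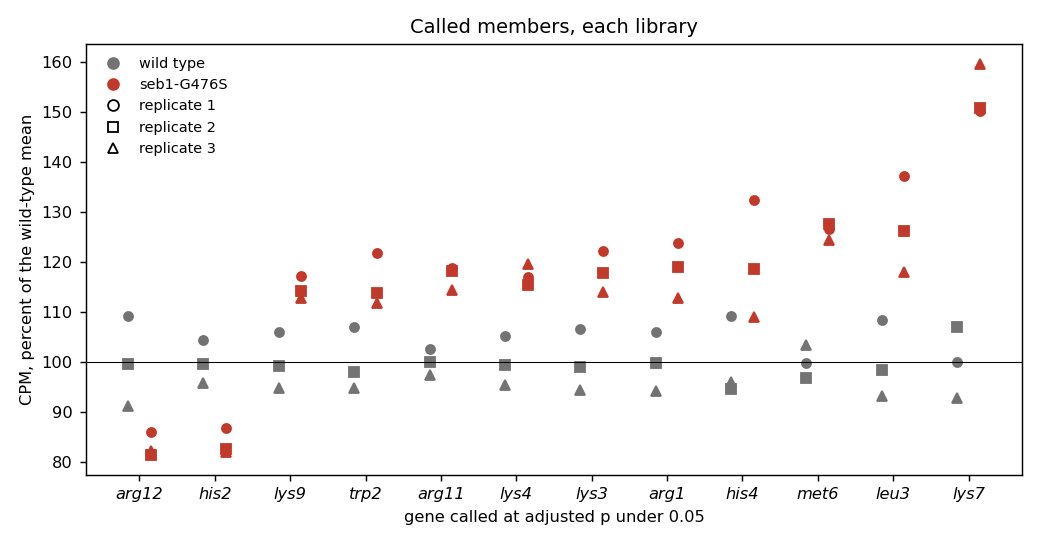
Level of the 12 called genes in each library as a percentage of the wild-type mean (vertical axis), ordered by their change, with grey symbols for the wild type, red for the mutant and a symbol shape for each replicate. Groups are apart for every gene shown other than his4, and lys7 shows the largest distance.

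Across branches the levels spanned a wide range. Per kilobase of exon, with exon lengths from the reference annotation, ilv5 led in both strains, and it was followed in the wild type by met26 at 980.2 ± 29.7 CPM per kb and lys9 at 975 ± 55.4 CPM per kb. These last levels differ by less than their SD. The next were sua1 at 627 ± 70.5 and arg1 at 619 ± 36.6 CPM per kb, also within their spread, and his1, the most abundant of its branch, was at 566 ± 32.7 CPM per kb. The most abundant gene of the tryptophan branch, trp2, stood at 291 ± 18.5 CPM per kb. At the other end, arg3 was at 61.4 ± 5.42, lys7 at 17.7 ± 1.25 and his3 at 4.73 ± 3.52 CPM per kb. In the mutant ilv5 was at 2027 ± 132, lys9 at 1119.5 ± 21.3 and met26 at 909.9 ± 22.1 CPM per kb.

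**Figure D3:**
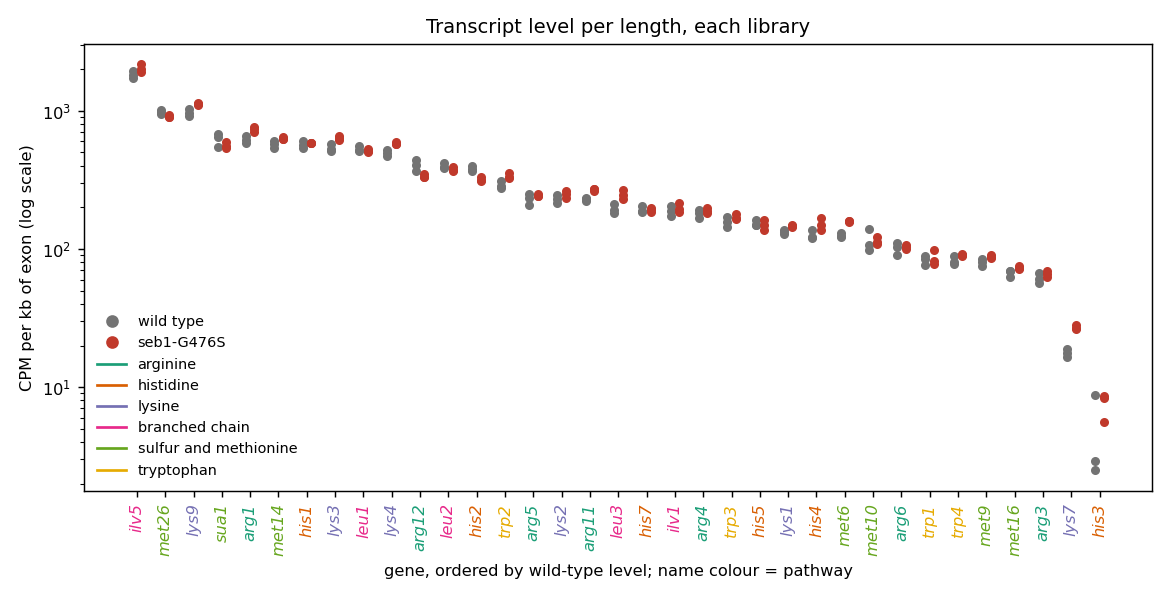
CPM per kb of exon (log scale) in each library for the 35 genes, ordered from left to right by the wild-type mean, with grey points for the wild type, red points for the mutant and gene names coloured by branch. The range runs from ilv5 down to lys7 and his3, the pair set apart at the low end.

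Within each group the 35 genes tended to rank the libraries alike. In the wild type replicate 1 was the highest library for 31 of the 35 genes and replicate 3 the lowest for 30. In the mutant replicate 1 was the highest for 31 and replicate 3 the lowest for 26. Over all features tested the wild-type replicate 1 was the highest for 33.6% and the mutant replicate 1 for 40.5%. Summed over the 35 genes the levels were 23211, 21703 and 20764 CPM in the wild type against 24094, 22908 and 22494 CPM in the mutant, so that wild-type replicate 1 lay above mutant replicates 2 and 3. The mean sum was 5.81% higher in the mutant, 23165 ± 830.1 against 21893 ± 1234 CPM, a difference close to the spread between libraries. What differed between the replicates was not tested.

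**Figure D4:**
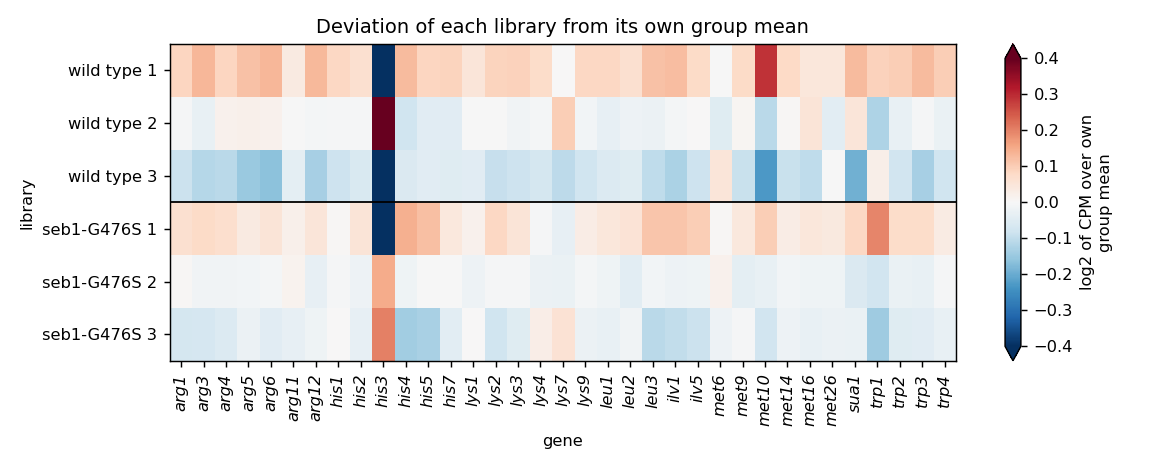
Deviation of each library (rows) from the mean of its own group for the 35 genes (columns), as log2 of CPM over that mean, with colours limited to ± 0.4. Replicate 1 of either group is red for most genes, and his3 departs from the pattern in both groups.

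By branch, the summed levels were higher in the mutant mean by 11.6% for tryptophan, 7.00% for arginine and 6.78% for the branched chains, beside the 14.7% for lysine. Of the 6 branches only lysine had sums that did not overlap, its lowest mutant library exceeding its highest wild-type library. The sums for histidine and for sulfur and methionine were lower in the mutant mean, at 1943 ± 61.2 against 1962 ± 104 CPM and 5037 ± 148 against 5172 ± 270.2 CPM. Both differences were within the SD of the wild type. Sums weigh abundant genes most and carry no test here.

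Several transcripts next to these genes changed by more than the genes did. Seb1 acts at gene ends, and the counted features next to each gene in the reference annotation were examined. Of 62 tested neighbours 18 were higher and 19 lower, 59.7% in all, against the 55.0% of all features tested, so the share of neighbours called was near that background. Their sizes were near it as well: 33.9% of the tested neighbours had a log2 change of at least 0.5 in either direction, against 32.6% of all features tested. Downstream of his2, on the opposite strand, the uncharacterised gene SPBC1711.15c rose from 4.81 ± 0.808 to 49.1 ± 4.24 CPM (log2 fold change 3.35, SE 0.141, adjusted p = 3.36e-07). On the far side of his1 the meiotic recombination gene rec10 rose from 12.2 ± 6.16 to 28.7 ± 2.72 CPM (log2 fold change 1.24, SE 0.278, adjusted p = 0.00452), while his1 itself was not called.

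Other called neighbours had a log2 change of at least 1 in either direction. Converging on lys1, the conjugation gene prm1 rose 2.06-fold (adjusted p = 4.86e-05, edgeR), from 21.3 ± 1.76 to 44.0 ± 2.87 CPM. Downstream of met16, arb2, which encodes an argonaute-binding protein, fell, at a log2 fold change of -1.14 (adjusted p = 0.000699 in edgeR). Upstream of met9, the rRNA methyltransferase gene rrp8 fell from 30.5 ± 6.73 to 14.3 ± 2.30 CPM (log2 fold change -1.10), and downstream of arg4, pdp2 fell from 20.0 ± 1.24 to 9.83 ± 1.19 CPM (log2 fold change -1.03).

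Antisense features named after 5 of the 35 genes, by symbol or identifier, were counted. Of these 3 were higher, where 26.7% of all features tested were, and the share among antisense features alone was not computed. Features with other names also overlap some of the 35 genes on the opposite strand and are outside this count. The arg4-antisense-1 feature stood at 1.12, 1.59 and 1.65 CPM in the wild type and at 4.75, 4.49 and 6.59 CPM in the mutant, a 3.62-fold rise (log2 fold change 1.85, SE 0.226, adjusted p = 0.000182). Its sense partner arg4 was at 700.0 ± 46.6 and 734 ± 31.9 CPM and was not called. A more abundant feature, SPBC215.07c-antisense-1, named after the neighbour pdp2, also overlaps arg4 on the opposite strand in the reference annotation. It rose from 166 ± 30.6 CPM in the wild type to 232 ± 11.6 CPM in the mutant (log2 fold change 0.48, SE 0.113, adjusted p = 0.0055 in edgeR). The sua1-antisense-1 feature was at 1.29, 1.28 and 1.20 CPM and 1.99, 2.08 and 2.02 CPM (log2 fold change 0.69, SE 0.182, adjusted p = 0.01), a call that DESeq2 did not make (adjusted p = 0.0865), and his5-antisense-1 was not called (log2 fold change 0.36). The feature antisense to lys9, SPBC3B8.03-antisense-1, was at 4.93, 6.68 and 10.6 CPM and 10.1, 12.4 and 13.6 CPM, with overlapping groups (log2 fold change 0.70, SE 0.248, adjusted p = 0.0349). Its call was lost with library totals alone (adjusted p = 0.116) and without wild-type replicate 1 (adjusted p = 0.0676) or 2 (adjusted p = 0.112) or mutant replicate 2 (adjusted p = 0.0879) or 3 (adjusted p = 0.122) in edgeR's test. The feature antisense to met10, SPCC584.01c-antisense-1, was not called (log2 fold change 0.039). If reads were counted without regard to strand, sense and antisense reads cannot be told apart, and the option used is not given here.

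Further genes of amino acid metabolism were listed by symbol, and 39 were found. Of these 9 were higher, 8 were lower and 22 were not called, with a median log2 fold change of 0.016. These are 43.6% called, 23.1% higher and 20.5% lower, each below the share over all features tested (55.0%, 26.7% and 28.4%), a difference that was not tested. With library totals alone as the scaling the counts were 8 higher and 14 lower, where 1148 and 2287 of all 6046 features tested were. The largest falls exceeded any among the 35 genes. The prephenate dehydrogenase gene tyr1, of tyrosine synthesis, fell from 27.6, 31.4 and 34.5 to 13.0, 13.8 and 14.4 CPM (log2 fold change -1.18, SE 0.117, adjusted p = 5.85e-05), and arg7, argininosuccinate lyase, the arginine enzyme after Arg12, fell from 21.5, 24.9 and 25.7 to 12.3, 10.8 and 13.7 CPM (log2 fold change -0.97, SE 0.131, adjusted p = 0.000302). In both genes the mutant libraries held about the same low level.

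The S-adenosylmethionine synthetase gene sam1, which uses the product of Met26, fell from 1407, 1379.8 and 1462 to 874, 860.3 and 876 CPM (log2 fold change -0.70, SE 0.0516, adjusted p = 9.08e-06). The mutant libraries agreed closely with each other. Smaller falls were those of the NADP-specific glutamate dehydrogenase gene gdh1 (log2 fold change -0.42), of ser3, which opens serine synthesis (-0.42), and of the serine hydroxymethyltransferase gene shm2 (-0.37).

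Among the rises, gdh2, the NAD-dependent glutamate dehydrogenase that releases ammonium from glutamate, went from 36.6, 31.1 and 26.9 to 61.4, 56.6 and 50.9 CPM (log2 fold change 0.84, SE 0.119, adjusted p = 0.000412). The pair gdh1 and gdh2 thus moved in opposite directions, each without overlap between groups. Lesser rises were those of the pentafunctional shikimate pathway gene aro1 (0.32), the threonine aldolase gene gly1 (0.30), the ornithine transaminase gene car2 (0.29) and the other serine hydroxymethyltransferase gene, shm1 (0.27). The list took trp663 by its name, which the authors' deposited table describes as an ion channel, and it rose from 0.572 ± 0.518 to 1.88 ± 0.278 CPM, with a log2 fold change of 1.74 that came to 2.70 without wild-type replicate 3. Without it 8 genes were higher and 8 lower among 38.

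Among the regulators of amino acid synthesis, hri1 and fil1 changed by more than any called gene of the 35, and hri2 by about as much as lys7. The transcript of fil1 (SPCC1393.08, chromosome III), the GATA-type activator of these genes in fission yeast, gave 694, 643 and 653 CPM in the wild type against 1209, 1226 and 1228 CPM in the mutant, a 1.84-fold rise (log2 fold change 0.88, SE 0.0532, adjusted p = 3.23e-06). The mutant libraries stood within a narrow band well above the wild type. The kinases upstream of it differed in sign: hri1 was at 40.8 ± 5.86 and 116 ± 3.35 CPM (log2 fold change 1.51, SE 0.0942, adjusted p = 3.91e-06), gcn2 at 60.2 ± 8.23 and 43.2 ± 2.56 CPM (log2 fold change -0.48, SE 0.102, adjusted p = 0.00344), and hri2 at 24.1 ± 2.85 and 15.5 ± 2.19 CPM (log2 fold change -0.63, SE 0.140, adjusted p = 0.00436).

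The activator of Gcn2, gcn1, had a log2 fold change of 0.23 (adjusted p = 0.00481 in edgeR). The RACK1 gene cpc2, the kinase gene tor2 and the GATA factor gene gaf1 were not called, at 0.19, 0.0026 and 0.09. These are transcript levels, and neither Fil1 protein nor the phosphorylation of eIF2 alpha was measured.

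**Figure D5:**
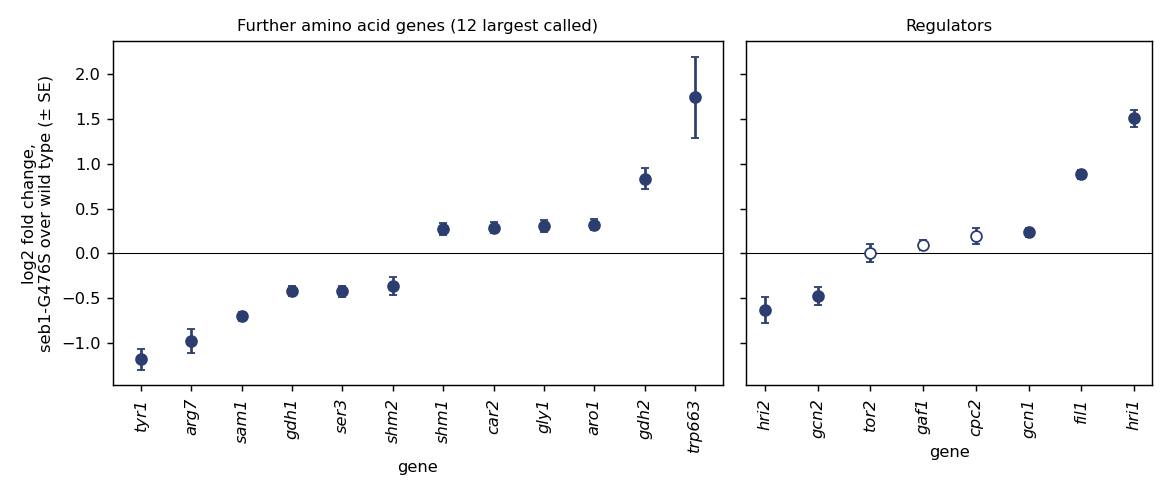
Log2 fold change of the mutant over the wild type (bars are SE) for the 6 largest called rises and 6 largest called falls among further amino acid genes (left) and for 8 regulators (right), with filled points for an adjusted p under 0.05. The falls of tyr1, arg7 and sam1 and the rises of hri1 and fil1 exceed every called change among the 35 enzymes.

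The authors' deposited table gives its own comparison, in which 46.6% of the features with an adjusted p were under 0.05. That share covers either direction, and the shares higher and lower were not computed. In the authors' deposited table, of the 35 genes 11 were higher and 0 lower, and 10 of the 11 are those called higher here. The gene added was met14 (log2 fold change 0.18, adjusted p = 0.0229 in the authors' deposited table). Both falls were not called in the authors' deposited table, where arg12 was at -0.23 (adjusted p = 0.128) and his2 at -0.22 (adjusted p = 0.0677). Values in the authors' deposited table lay above those fitted here by 0.033 to 0.045 on the log2 scale for all 35 genes. This shift was not particular to these genes: the median log2 fold change over all features was 0.030 in the authors' deposited table and -0.0078 over those tested here.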

How the data were processed

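The authors deposited unnormalised read counts for each feature of the 6 libraries. Their own comparison, per the file headers, holds log2 fold changes, a test statistic treated as a score, p-values, and a mean of normalised counts treated as a signal. Per the submitters' processing notes the tools included HTSeq 0.10.0 and HISAT2 2.1.0, with DESeq2 and SAMtools, and the build was ASM294v2. The annotation release and strand option are not given in the sources used here. Libraries were stranded and selected for polyadenylated RNA, per the labels' protocols.

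The count table had 6987 rows, of which 1 repeated identifier was summed. Exon lengths and neighbours came from the RefSeq annotation of ASM294v3, to which 6833 of 6986 features matched directly and 13 through a synonym, and none of its coordinates or sequences is printed because the build differs. The test was edgeR 4.0.16 (R 4.3.3), quasi-likelihood, TMM scaling, filterByExpr with a minimum count of 10, two-sided, with 4 residual degrees of freedom, tested on simulated data. Each SE is the size of the log2 fold change divided by the root of its F value. DESeq2 1.42.0, other scalings, no filter, a replicate term and leaving out each library were alternatives. P-values rest on 3 libraries of 1 strain in each group. One count corresponds to 0.0371 to 0.0445 CPM. No pair of libraries agreed within sampling noise (lowest chi-square per degree of freedom 3.81).

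The genes, lists and tests were chosen with earlier results of these data known. Every enzyme gene of the list is named, with values per library for genes called with a log2 change of at least 0.3 and, beyond that rule, for the other called genes, and for the most abundant of each branch. Neighbours are named at a called log2 change of at least 1, apart from 1 that is not reported here, and further genes by the 6 largest changes in each direction. No promoter search was made.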

Additional observations from a re-analysis of the deposited data

How the results depend on the processing

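The number of amino acid genes called higher, 10 as reported, was 7 with library totals alone and 12 with DESeq2 or RLE size factors. The number lower, 2 as reported, was 7 with library totals alone. Of all features tested 55.0% were called as reported, 56.8% with library totals alone, 55.2% with RLE size factors and 49.0% with DESeq2. Leaving out 1 library gave 7 to 17 higher and 2 to 3 lower, the 17 being without wild-type replicate 1. Among the further genes it gave 8 to 13 higher and 7 to 12 lower, the 12 being without wild-type replicate 3. Of all features tested 41.5% to 57.7% were called with 1 library left out. Those further genes had 14 lower with library totals alone. Same-numbered libraries deviated together with correlations of 0.36, 0.058 and 0.26, and pairs with unlike numbers had correlations of -0.30 to 0.066. For mutant replicate 2 the highest was with wild-type replicate 3 (0.066), hardly above that with wild-type replicate 2. Whether the numbers pair the libraries was not tested. With replicate number as a block his3 was called (log2 fold change 0.79, adjusted p = 0.0309 in edgeR), 18 amino acid genes were higher and 4 lower, and 14 and 13 of the further genes. Of all 6046 features tested 1877 were then higher and 2029 lower. With the block and without wild-type replicate 1 the share of the 35 genes called higher was above that of all features. Without mutant replicate 1 it was below, 7 of 35 against 1368 of 6082. These differences were not tested.

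Alternatives were run for the 35 genes and for the further genes, regulators, neighbours and antisense features named by the rule, not for markers or genes known by product. Among those run, signs turned for genes that were not called, with library totals alone arg3 (-0.012), arg4 (-0.049), arg5 (-0.042), arg6 (-0.085), his1 (-0.067), lys2 (-0.0023), ilv1 (-0.054), trp1 (-0.083), tor2 (-0.11), gaf1 (-0.027) and SPCC584.01c-antisense-1 (-0.081), and with the replicate block met10 (0.0093). Ranges over leaving out 1 library crossed 0 for arg6 (-0.047 to 0.10), his5 (-0.092 to 0.024), his7 (-0.031 to 0.042), leu1 (-0.071 to 0.0012), met10 (-0.11 to 0.16), trp1 (-0.072 to 0.094), tor2 (-0.084 to 0.11), rpb1 (-0.068 to 0.049) and SPCC584.01c-antisense-1 (-0.11 to 0.30). The causes were not tested. Of the 12 called genes arg1, arg11, arg12, his2, lys3, lys4, lys7, leu3 and met6 were called in all 11 alternatives.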

Other observations

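Some steps of these pathways are carried by genes that the authors' deposited table describes by product only. They were collected after their values were seen, so they carry no count, and adjusted p-values are those of edgeR's test over all features. The histidinol-phosphatase gene SPCC1672.01, whose product acts between His3 and His2, rose from 54.7, 53.7 and 55.4 CPM to 98.0, 91.5 and 91.5 CPM (log2 fold change 0.78, SE 0.0599, adjusted p = 1.17e-05), a larger change than in any of the 6 named histidine genes that was called. The dihydroxy-acid dehydratase gene SPAC17G8.06c, whose product follows Ilv5, rose from 1239 ± 95.4 to 1529 ± 68.6 CPM (log2 fold change 0.30, SE 0.0685, adjusted p = 0.00466). In the arginine branch SPBC1271.14, described as an acetyl-CoA:L-glutamate N-acetyltransferase, fell from 97.0 ± 6.69 to 69.8 ± 0.810 CPM (log2 fold change -0.47, SE 0.0652, adjusted p = 0.000337).

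In the route from aspartate to threonine, the aspartate kinase gene SPBC19F5.04 was not called (log2 fold change -0.091, adjusted p = 0.179 in edgeR). The next enzymes were higher: SPCC1827.06c, aspartate semialdehyde dehydrogenase, at 0.26, SPBC776.03, homoserine dehydrogenase, at 0.22, and SPAC9E9.06c, threonine synthase, at 0.37, with adjusted p of 0.0044, 0.0276 and 0.00044 in edgeR. Homoserine from this route is the substrate of Met6. Of a pair of genes for the enzyme that opens aromatic synthesis, phospho-2-dehydro-3-deoxyheptonate aldolase, SPAP8A3.07c rose from 1129 ± 49.9 to 1566 ± 53.6 CPM (log2 fold change 0.47, SE 0.0576, adjusted p = 0.000182) and SPAC24H6.10c was not called (log2 fold change 0.023, adjusted p = 0.765 in edgeR). The difference between the pair was not tested.

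The other genes of this kind that were looked up were not called. The aromatic aminotransferase genes SPAC56E4.03, SPBC1773.13 and SPCC569.07 had log2 fold changes of 0.14, -0.18 and -0.24. The pyrroline-5-carboxylate reductase gene SPAPYUG7.05, of proline synthesis, was at 0.16 and the alanine aminotransferase gene SPBC582.08 at 0.11. The cystathionine beta-lyase gene SPCC11E10.01, of methionine synthesis, was at -0.053 and the aminoadipate transaminase gene SPAC6B12.04c, of lysine synthesis, at -0.0043.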
